A study of Mus musculus with 4 samples.

Results

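MHC class I antigen processing genes were examined in cardiac ventricles without ERRα (estrogen-related receptor α, encoded by Esrra, a nuclear receptor known for its control of mitochondrial energy genes) and in wild-type ventricles. 10 genes were listed: B2m, H2-D1, H2-K1, Tap1, Tap2, Tapbp, Psmb8, Psmb9, Psme1 and Psme2. Every probe set annotated to exactly 1 of them was taken, which gave 17 of the 12488 probe sets on the array and covered 9 of the 10 genes. Both probe sets of Psme2 were annotated to Psme2b as well and fell outside the choice. H2-D1, H2-K1 and Tapbp had 3 probe sets each, Tap1 and Psme1 had 2 each, and the others had 1 each. A further 5 probe sets belonged to other class I genes that carry H2-D1 or H2-K1 as an older name (H2-K2, H2-Q4, H2-Q1, H2-Q10 and H2-Bl); they were counted apart from the 17.

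The groups were ERRα knockout ventricle at baseline (2 arrays) and wild-type ventricle at baseline (2 arrays). The labels do not say what baseline was set against. The labels give neither the design of the targeted allele nor the strain, sex or age of the mice, and they do not say whether the numbered samples were separate animals or pools. The p-values thus reflect just how far these samples lie apart, a spread that could be technical. Each value is a scaled, linear signal of 1 probe set on 1 array, and signals of different probe sets were not set against each other.

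MHC class I molecules display peptides from inside the cell to cytotoxic T cells. The proteasome cuts proteins into peptides, and interferon-γ swaps its standard catalytic subunits for inducible ones, which form the immunoproteasome. The TAP transporter carries peptides into the endoplasmic reticulum, tapasin (Tapbp) bridges the transporter to empty class I molecules, and a heavy chain (H2-K1, H2-D1) folds with the light chain β2-microglobulin (B2m) around the peptide. Most of these genes lie in the H2 complex and are inducible by interferon. In the heart, endothelial and immune cells are known to carry more class I on their surface than cardiomyocytes.

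By RefSeq positions on assembly GRCm38.p6, 7 of the 10 genes lay on chromosome 17. Psmb9, Tap1, Psmb8 and Tap2 followed each other there with no other annotated gene between them, in a stretch of 34.3 kb (chr17:34182030-34216321). Tapbp (chr17:33919478-33929290) and H2-K1 (chr17:33996012-34000619) lay on one side of this stretch and H2-D1 (chr17:35263094-35267497) on the other. Psme1 (chr14:55578494-55581527) and Psme2 (chr14:55587440-55591101) lay 5.9 kb apart on chromosome 14, and B2m (chr2:122147687-122153082) was on chromosome 2. Where each probe set falls within its transcript was not examined.

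The DNA before the gene starts is shown for the members whose signals are described first or whose copies are alike. Sequences are from RefSeq, build GRCm38.p6, written 5′ to 3′ on the strand named. The H2-K1 stretch is counted from an annotated start at chr17:34000347 and lies within the span given above for that gene. A start of H2-K1 at chr17:34000333 was searched too. Capitals mark matches, on either strand, to 4 motifs: GAAANNGAA, the core of the interferon-stimulated response element, TTCNNNGAA, the GAS element of interferon-γ responses, TNAAGGTCA, the element bound by ERR receptors, and an NF-κB element.
Tap1 and Psmb9, the 225 bases between their starts, chr17:34187331-34187555, plus strand: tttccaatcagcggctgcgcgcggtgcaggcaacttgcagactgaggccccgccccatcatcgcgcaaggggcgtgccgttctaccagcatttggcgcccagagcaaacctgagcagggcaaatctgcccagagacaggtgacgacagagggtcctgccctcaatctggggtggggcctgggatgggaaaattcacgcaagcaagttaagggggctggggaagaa
Psme1, 250 to 101 bases before the start, chr14:55578244-55578393, plus strand: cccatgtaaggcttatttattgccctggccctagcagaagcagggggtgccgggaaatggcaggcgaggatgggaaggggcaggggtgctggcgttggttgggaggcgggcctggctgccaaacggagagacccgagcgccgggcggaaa
Psmb8, 160 to 61 bases before the start, chr17:34198035-34198134, plus strand: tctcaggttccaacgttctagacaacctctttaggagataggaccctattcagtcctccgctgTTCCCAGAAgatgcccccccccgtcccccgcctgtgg
B2m, 160 to 61 bases before the start, chr2:122147527-122147626, plus strand: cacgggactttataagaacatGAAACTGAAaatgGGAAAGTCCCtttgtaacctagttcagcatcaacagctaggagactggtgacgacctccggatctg
H2-K1, 160 to 61 bases before the start, chr17:34000408-34000507, minus strand: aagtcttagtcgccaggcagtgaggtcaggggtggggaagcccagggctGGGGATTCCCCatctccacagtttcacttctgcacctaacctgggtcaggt
H2-D1, 220 to 121 bases before the start, chr17:35262874-35262973, plus strand: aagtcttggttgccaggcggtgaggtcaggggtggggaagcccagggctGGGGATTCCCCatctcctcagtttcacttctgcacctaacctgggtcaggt

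Psmb9 and Tap1 start back to back on opposite strands, so the stretch between them lies before both genes, and it held none of the 4 motifs in these letters, nor did the stretch before Psme1. The 250 bases before the start were searched for 9 of the 10 genes (Tap2 was not in the promoter table). The interferon element, in the spelling GAAANNGAA on either strand, was matched before B2m. The GAS element was matched before Psmb8, and the NF-κB element before B2m, H2-K1 and H2-D1. Among 32851 promoters of the same length these motifs were present in 7.13%, 7.02% and 3.44%. The ERR element was matched before 0 of the 9 genes and in 1.14% of all promoters. In H2-K1 and H2-D1 the NF-κB letters were matched on both strands, in overlapping positions. The printed stretches of H2-K1 and H2-D1 were identical at 96 of 100 bases. After the NF-κB letters both held cagtttcacttctgcacc, which is close to the reverse of the interferon spelling (TTCNNTTTC) but does not match it. Other spellings of the interferon element were not searched, so its absence before H2-K1, H2-D1 or the other genes cannot be read from this search. A match is a description of the letters and does not show that a factor binds.

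The arrays were checked before the members were read. Esrra, the gene that encodes ERRα, gave 922 and 1050.2 in knockout ventricles against 8598 and 8039 in wild-type ventricles for its stronger probe set, in keeping with the labels. The 5′ to 3′ signal ratio of β-actin, a measure of RNA and labelling quality, was 0.694 and 0.813 in knockout ventricles against 0.966 and 0.909 in wild-type ventricles. For Gapdh it stood at 0.994 and 0.968 in knockout, against 1.04 and 1.01 in wild type. All 12 ventricular cardiomyocyte markers on the array passed the filter on low signal. Wild-type replicate 2 stood apart from the other 3 arrays in part of the interferon-response genes. Of 13 kept genes on that list 8 were highest there, beside 1364 of all 5653 genes, and Isg15 and Mx2 were not. Iigp1, an inducible GTPase, gave 2161 and 1863 in knockout ventricles against 1756 and 21144 in wild-type ventricles, and Igtp, another of that family, gave 537 and 588 against 351 and 4136. Results that moved most with wild-type replicate 2 are given without it as well.

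Of the 17 probe sets, 16 passed the filter on low signal (a mean of at least 350.6), and they were fitted with all 7453 probe sets that passed. None of the 16 passed the threshold of 0.05 on the adjusted p of limma, a linear model with moderated variance, and the members' adjusted p ran from 0.694 to 0.982. Among all probe sets tested 1 passed, or 0.0134%, and it was the weaker one of Esrra (limma adjusted p = 0.0441). It gave 83.6 and 55.2 in knockout, below the floor of 110 used for the fit, against 2688 and 2828 in wild type. The stronger Esrra probe set, given above, did not pass (log2 -3.08, limma adjusted p = 0.179). At an unadjusted p under 0.05 there was 1 member probe set, that of Psme1, where 6.79% of all probe sets were below that value. The knockout and wild-type arrays did not overlap for 5 member probe sets that were lower and 3 that were higher in knockout, 8 in all out of 16, beside a background of 16.7% lower, 20.7% higher and 37.4% in either direction. By at least 1.5-fold and without overlap, 2 were lower (Psme1 and the stronger Tap1 probe set) and 1 was higher (the weaker Tap1 probe set), beside 4.20% and 6.84% of all probe sets. This count was 0 when wild-type replicate 2 was left out, with Psme1 just under the limit, and 6 when wild-type replicate 1 was left out. With fewer arrays overlap is less likely, and the counts over all 7453 probe sets rose as well. They were 855 higher and 597 lower without wild-type replicate 2, and 838 and 565 without wild-type replicate 1. With all arrays the counts over all probe sets at 1.5-fold were 510 higher and 313 lower. They were 391 and 420 after quantile normalization and 324 and 527 after scaling to a common median. None of the 16 member differences turned its sign under these 2 scalings.

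With the strongest probe set of each gene, 8 of 9 genes had a lower mean log2 signal in knockout and Tapbp had a higher one. The median difference over the 9 genes was -0.32 on the log2 scale, against 0.01 over all 5653 genes measured the same way. Over all 16 probe sets it was -0.08 (11 lower, 5 higher), with the mean of each gene's probe sets -0.19, and with the probe sets of several genes added -0.21. Of the 9 genes, 5 were lower and 1 was higher without overlap, beside 17.5% and 19.9% of all genes. The members' medians on the single arrays, each relative to the mean of the 4 arrays, were -0.30 and -0.09 in knockout ventricles against -0.15 and 0.51 in wild-type ventricles. Wild-type replicate 2 was the high array, and wild-type replicate 1 lay between the knockout arrays. The median difference was -0.11 if wild-type replicate 2 was left out and -0.69 if wild-type replicate 1 was. In bulk tissue, fewer cells of a type and less RNA per cell cannot be told apart.

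**Figure D1:**
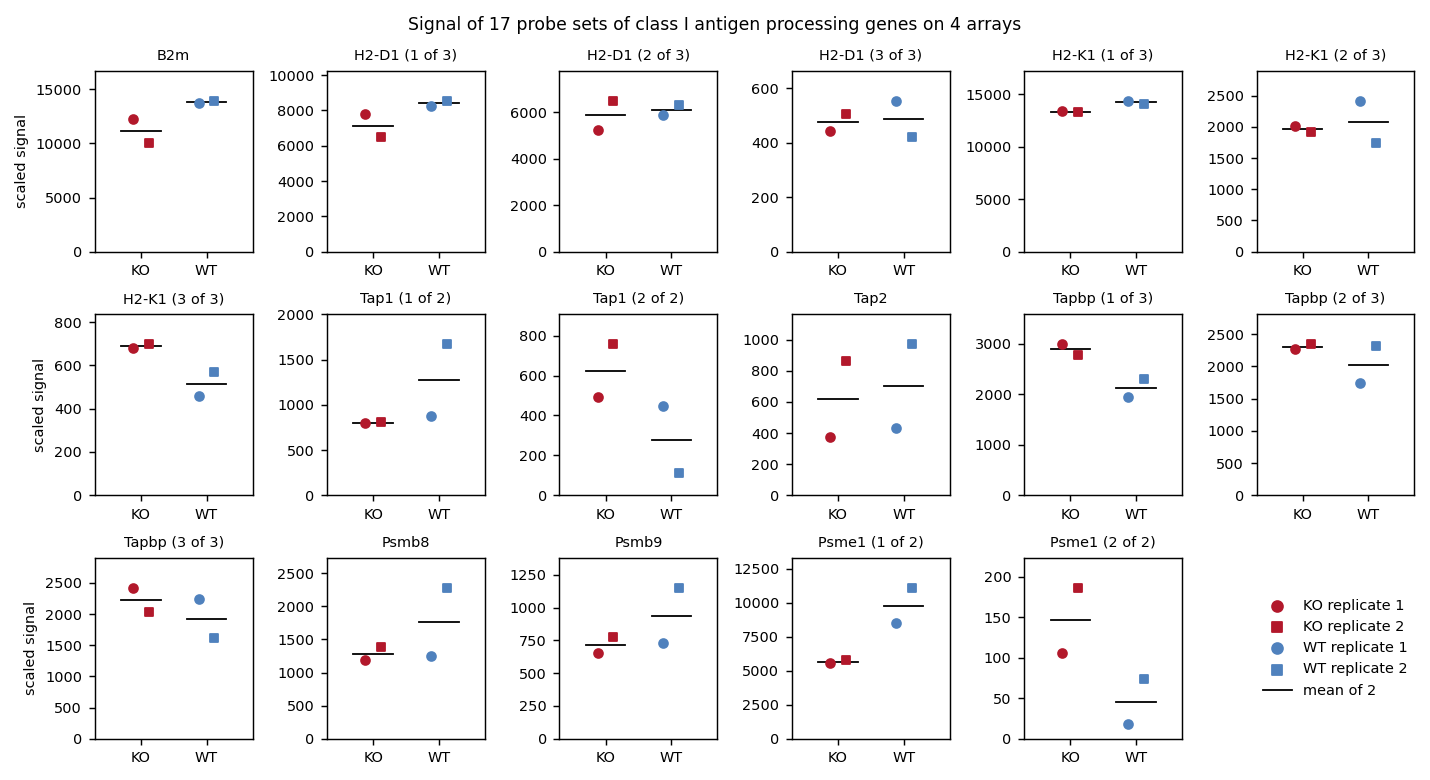
Scaled signal (vertical axes, linear, from 0) of the 17 probe sets, with knockout (KO) left and wild type (WT) right, circles for replicate 1, squares for replicate 2 and a line at the mean of 2. The Psme1 arrays separate by genotype in the stronger probe set, whereas Psmb8, Psmb9 and the stronger Tap1 probe set are high on WT replicate 2 (2279, 1151 and 1668) and alike on the other 3 arrays.

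Psme1 had the largest difference by genotype among the strongest probe sets. It encodes the α subunit of PA28, the interferon-inducible cap that opens the proteasome core. The signal was 5540.4 and 5796 in knockout ventricles against 8495.5 and 11098 in wild-type ventricles, a mean of 5668 ± 181 against 9797 ± 1840.0 (SD, n = 2 each). Both knockout arrays lay below both wild-type arrays, and the knockout arrays were close to each other. The difference was -0.78 on the log2 scale (SE 0.23), or 1.71-fold lower in knockout, and it did not pass (limma adjusted p = 0.694). It was -0.97 if wild-type replicate 1 was left out and -0.58 if wild-type replicate 2 was, so the direction did not rest on the array with high interferon-response signals. A second Psme1 probe set did not pass the filter, with 106 and 186 in knockout against 17.8 and 73.4 in wild type. Its order was the opposite, and 3 of its 4 signals were below the floor of 110 used for the fit. The knockout arrays also had the lower 5′ to 3′ ratio of β-actin, and the part of RNA quality in the Psme1 difference was not tested.

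Psme2, the β subunit of PA28, which forms the same ring with Psme1, could be read only from the probe sets shared with Psme2b. The stronger gave 3145 and 2819 in knockout ventricles against 3404 and 2988 in wild-type ventricles. The groups overlapped and the difference was -0.10 on the log2 scale (SE 0.21, limma adjusted p = 0.943). Psme3, the PA28 subunit of the nucleus that is not part of antigen processing in the same way, gave 1597 and 1636 in knockout against 1741 and 1767 in wild type (log2 -0.12, SE 0.19).

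The immunoproteasome subunits Psmb8 and Psmb9 were set apart by 1 array. Psmb8, the inducible subunit that takes the place of Psmb5, gave 1191 and 1381 in knockout ventricles against 1254 and 2279 in wild-type ventricles. Psmb9, which takes the place of Psmb6, gave 658 and 775.5 in knockout ventricles against 729 and 1151 in wild-type ventricles. In both genes wild-type replicate 1 lay between the knockout arrays, so the groups overlapped, and wild-type replicate 2 was 1.65-fold and 1.48-fold above the next highest array. The genotype differences were -0.40 (SE 0.35) for Psmb8 and -0.36 (SE 0.30) for Psmb9 on the log2 scale, with limma adjusted p of 0.843 and 0.837. They were 0.03 and -0.03 if wild-type replicate 2 was left out, and -0.83 and -0.69 if wild-type replicate 1 was.

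The third inducible subunit, Psmb10, lies outside the H2 complex and was not among the listed genes. It gave 4843 and 4640.4 in knockout against 5309 and 5164 in wild type (log2 -0.14, SE 0.19), and wild-type replicate 2 was not its highest array. The standard subunits were measured on the same arrays. Psmb5 gave 5005 and 4582 in knockout against 5369 and 5420.4 in wild type on its stronger probe set. Psmb6 gave 6464 and 5624 in knockout against 6959 and 8046 in wild type. Psmb7, the standard counterpart of Psmb10, gave 7136 and 6249 in knockout against 7151 and 6478 in wild type. Psmb5 and Psmb6 were lower in knockout without overlap, by 1.13-fold and 1.24-fold, and did not pass (limma adjusted p = 0.881 and 0.829). Psmb7 overlapped.

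**Figure D2:**
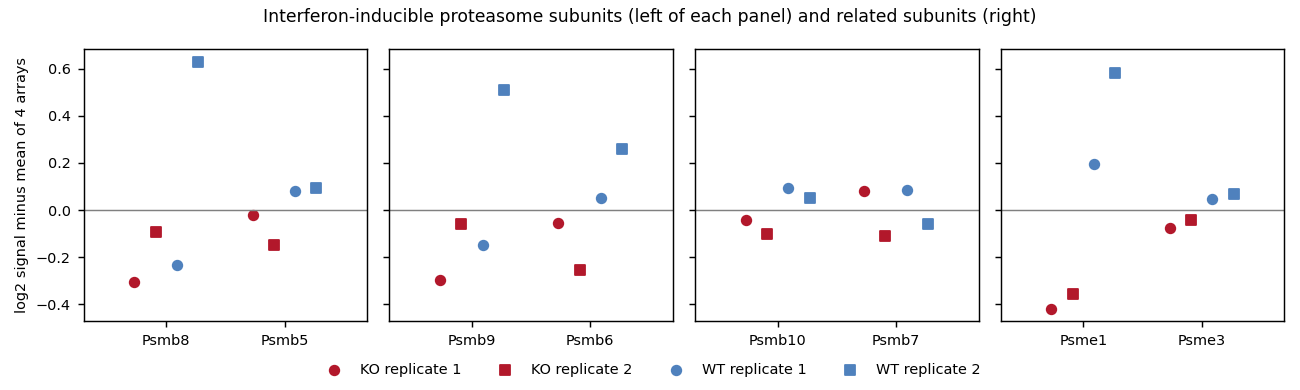
Log2 signal minus the mean of the 4 arrays (vertical axis) for Psmb8 beside Psmb5, Psmb9 beside Psmb6, Psmb10 beside Psmb7 and Psme1 beside Psme3, with red for knockout and blue for wild type, circles for replicate 1 and squares for replicate 2. Psmb8 and Psmb9 are high on wild-type replicate 2 with the other 3 arrays together, whereas both wild-type arrays of Psme1 lie above both knockout arrays.

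The transporter genes Tap1 and Tap2 encode the 2 chains of the peptide pump. The stronger Tap1 probe set gave 803 and 805 in knockout ventricles against 874 and 1668 in wild-type ventricles. The groups did not overlap, but wild-type replicate 1 lay just above the knockout arrays and wild-type replicate 2 was 1.91-fold above it. The difference was -0.59 on the log2 scale (SE 0.36, limma adjusted p = 0.814), and -0.12 without wild-type replicate 2. The weaker Tap1 probe set, whose name carries a suffix for less specific probe design, ran the other way. It gave 491 and 757 in knockout ventricles against 447 and 111.5 in wild-type ventricles, a difference of 1.45 (SE 0.72, limma adjusted p = 0.789) that was 0.45 without wild-type replicate 2. The signal of 111.5 lay at the floor of the fit, and with a floor at the 40th percentile the difference was 0.64. The 2 Tap1 probe sets thus disagreed most on wild-type replicate 2, where the stronger was at its highest and the weaker at its lowest.

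Tap2 gave 375 and 862 in knockout ventricles against 432 and 970 in wild-type ventricles. Replicate 2 was the higher array in each genotype and the groups overlapped. The difference was -0.19 on the log2 scale (SE 0.59, limma adjusted p = 0.954). It was 0.40 without wild-type replicate 2, 0.41 without knockout replicate 1 and -0.79 without knockout replicate 2, so no direction could be read for Tap2.

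Psmb9, Tap1, Psmb8 and Tap2, which follow each other on chromosome 17, were all highest on wild-type replicate 2 in their strongest probe sets, whereas the weaker Tap1 probe set was lowest there. Their log2 signals there lay 0.68, 1.01, 0.84 and 0.90 above the mean of the other 3 arrays. Of the 16 member probe sets 7 were highest on that array, beside 23.1% of all probe sets. Psmb8 and the stronger Tap1 probe set were at least 1.5-fold above every other array there, which held for 1.60% of all probe sets. A highest signal on wild-type replicate 2 was not particular to this run of genes in the H2 region. The strongest H2-K1 probe set ranged over 0.11 on the log2 scale, and that of H2-D1 over 0.40, with its highest signal on wild-type replicate 2. H2-DMa, a chaperone of class II loading, gave 1072 and 507 in knockout against 415 and 1507 in wild type. H2-Ab1, a class II chain on the other side, gave 1722 and 1063 in knockout against 764 and 1930.2 in wild type. Both were highest on wild-type replicate 2, followed by knockout replicate 1, and lowest on wild-type replicate 1. Their log2 signals on wild-type replicate 2 lay 1.31 and 0.79 above the mean of the other 3 arrays. The class II chains H2-Aa and H2-Eb1 were highest there too, by 0.32 and 0.14 on the same measure, whereas H2-DMb1 was not.

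**Figure D3:**
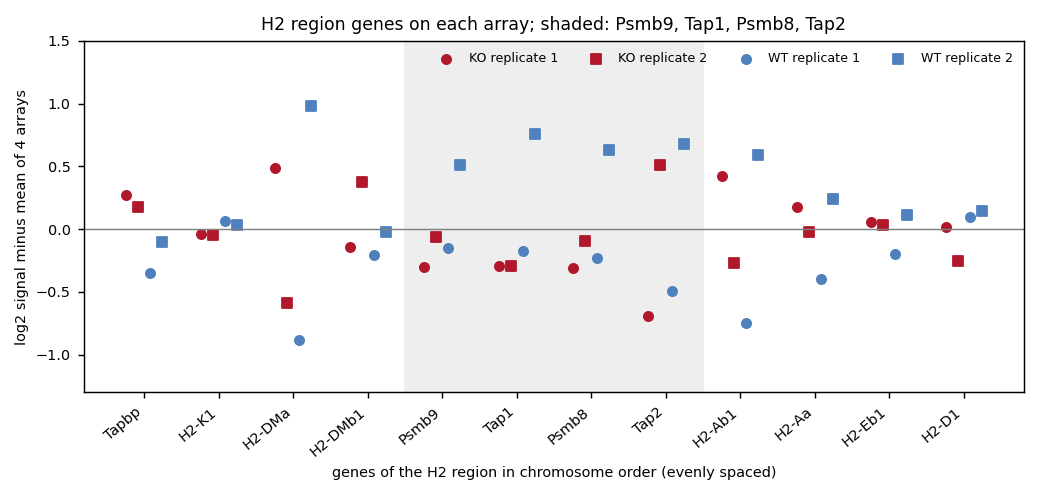
Log2 signal minus the mean of the 4 arrays (vertical axis) for 12 genes of the H2 region in chromosome order, evenly spaced, with red for knockout and blue for wild type, circles for replicate 1 and squares for replicate 2. In the shaded run of Psmb9, Tap1, Psmb8 and Tap2 (strongest probe sets) the highest point is wild-type replicate 2 each time, and in Tap2 knockout replicate 2 lies close to it. Outside the run it is also the highest point in H2-DMa, H2-Ab1, H2-Aa, H2-Eb1 and H2-D1.

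Tapbp, which encodes tapasin, was the only gene whose strongest probe set was higher in knockout. That probe set gave 2992 and 2790 in knockout ventricles against 1947 and 2311 in wild-type ventricles. Both knockout arrays lay above both wild-type arrays, by 1.36-fold on average (log2 0.45, SE 0.21, limma adjusted p = 0.772). Leaving out wild-type replicate 2 gave 0.57 and leaving out wild-type replicate 1 gave 0.32. The other Tapbp probe sets overlapped between genotypes. They gave 2277 and 2344 in knockout against 1739 and 2313 in wild type, and 2421 and 2028 in knockout against 2240.4 and 1614.5 in wild type. Their mean differences were higher in knockout too, 0.20 (SE 0.24) and 0.22 (SE 0.26). The first was -0.0019 without wild-type replicate 1 and the other -0.016 without wild-type replicate 2. None of the 3 Tapbp probe sets was highest on wild-type replicate 2.

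The partners of peptide loading and trimming, a list of 11 genes, had 7 measured and kept genes. None passed, 5 had a lower and 2 a higher mean in knockout, and their median was -0.09 on the log2 scale (-0.16 without wild-type replicate 2). The groups stood apart for 1, Psmb10, which was lower, beside 17.5% of all genes. Hspa5, the endoplasmic reticulum chaperone BiP, had the lowest unadjusted p of the list, with 11180 and 15601 in knockout against 17887 and 15273 in wild type, and its groups overlapped. Calr, calreticulin, gave 33.7 and 55.5 in knockout against 67.6 and 48.0 in wild type on its probe set, below the filter.

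The light chain B2m was somewhat lower in knockout. It gave 12241 and 10049 in knockout ventricles against 13767 and 13927 in wild-type ventricles. The groups did not overlap, and the difference was -0.32 on the log2 scale (SE 0.22, limma adjusted p = 0.823), 1.25-fold lower in knockout. It was -0.46 without knockout replicate 1 and -0.18 without knockout replicate 2. The 2 wild-type arrays were within 1.01-fold of each other, and the high interferon-response array did not stand out in B2m. Endothelial markers, from cells that are rich in class I, had 9 of 11 genes with a lower mean in knockout and a median of -0.06, or -0.25 without wild-type replicate 2, with summed signals of 54892 and 49953 in knockout against 58704 and 58891 in wild type. Their part in the B2m difference was not tested.

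The heavy chain probe sets ran both ways, from -0.24 to 0.43 on the log2 scale. The strongest H2-K1 probe set gave 13382 and 13304 in knockout ventricles against 14372 and 14060 in wild-type ventricles. All 4 arrays lay within 0.11 on the log2 scale, the narrowest range of any member probe set, and the difference was -0.09 (SE 0.19, limma adjusted p = 0.943). The middle H2-K1 probe set gave 2016 and 1918 in knockout against 2417 and 1745 in wild type. The weakest gave 679 and 697 in knockout against 459 and 567.5 in wild type, higher in knockout without overlap by 1.35-fold (log2 0.43, SE 0.22, limma adjusted p = 0.791). It is the only H2-K1 or H2-D1 probe set whose name carries no suffix for cross-hybridization.

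The strongest H2-D1 probe set gave 7813 and 6472 in knockout ventricles against 8255 and 8543 in wild-type ventricles. The groups did not overlap, and the difference was -0.24 (SE 0.21, limma adjusted p = 0.845). The other H2-D1 probe sets gave 5250.4 and 6483 in knockout against 5867 and 6324 in wild type, and 444 and 504 in knockout against 553 and 422 in wild type. Both overlapped, with differences of -0.06 and -0.03. Class I heavy chain genes are near copies of each other and differ between strains, and 5 of the 6 probe sets for H2-K1 and H2-D1 carry a suffix for probes shared within a gene family, so their signals could hold RNA of other class I genes.

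**Figure D4:**
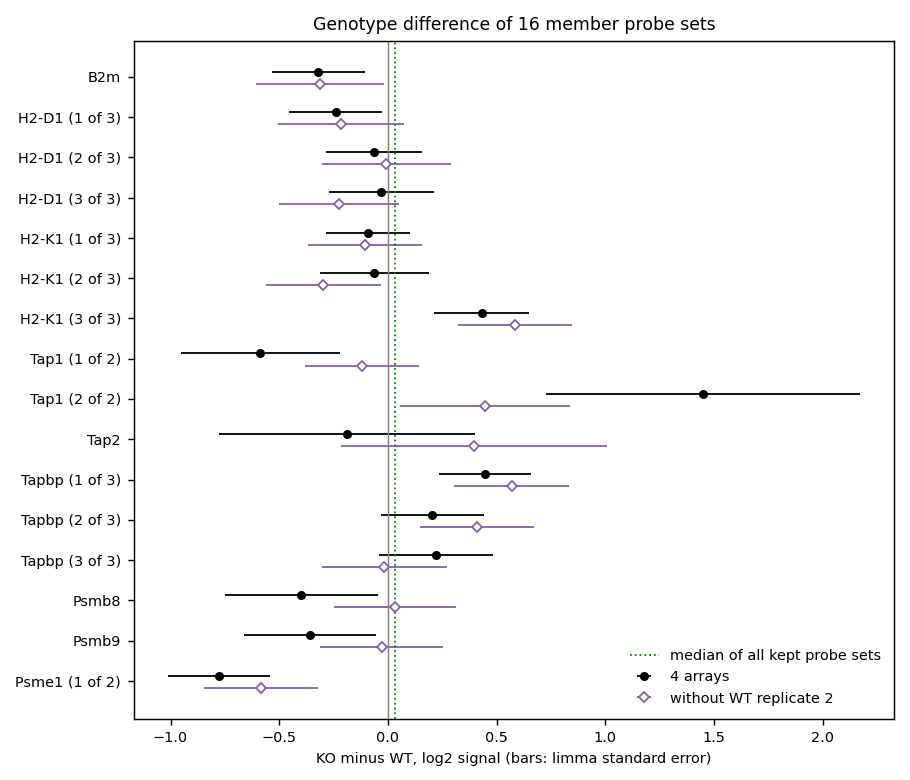
Difference between knockout and wild type in log2 signal (horizontal axis, bars for the limma standard error) of the 16 member probe sets, in black for the 4 arrays and in open purple diamonds without wild-type replicate 2. Psme1 stays at the low end under both (-0.78 and -0.58), whereas Psmb8 and Psmb9 move to about 0 (0.03 and -0.03) and the stronger Tap1 probe set to -0.12.

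Among class I genes that carry H2-K1 or H2-D1 as an older name, the H2-K2 probe set gave 5332 and 2101 in knockout ventricles against 7173 and 7758 in wild-type ventricles. The groups did not overlap, but the knockout arrays differed by 2.54-fold, and the difference of -1.16 on the log2 scale (SE 0.49) did not pass (limma adjusted p = 0.745). H2-Q4 gave 1789 and 1641 in knockout against 2295 and 2269 in wild type, 1.33-fold lower without overlap (limma adjusted p = 0.772). H2-Q10 was higher without overlap, with 1399 and 1506 in knockout against 1222 and 1165 in wild type. H2-Bl overlapped, and H2-Q1 was below the filter.

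A list of 18 class I and class I-like genes outside the members had 6 kept genes. None passed, and 1 was lower and 3 were higher in knockout without overlap, beside 17.5% and 19.9% of all genes. The median was 0.17 on the log2 scale, or 0.09 without wild-type replicate 2. The list holds neither H2-K2 nor H2-Bl, and with both it had a median of 0.05, or -0.17 without that array. Hfe, a class I-like protein that binds B2m and controls iron uptake, had the lowest unadjusted p of the list. It gave 3160 and 3236 in knockout ventricles against 1898 and 1258 in wild-type ventricles. That is 2.07-fold higher in knockout (log2 1.05, SE 0.28), with no overlap, and it did not pass (limma adjusted p = 0.694). Without wild-type replicate 2 the difference was 0.75.

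The standard proteasome core gave 14 kept genes of 14. None passed, 11 had a lower and 3 a higher mean in knockout, 8 were lower and 0 higher without overlap (17.5% and 19.9% of all genes), and the median was -0.17 on the log2 scale, against 0.01 over all genes. No core gene differed by 1.5-fold without overlap. Psma1 had the lowest unadjusted p, with 1007 and 1149 in knockout against 1519.6 and 1649.6 in wild type (log2 -0.56, SE 0.21, limma adjusted p = 0.725). Of 19 kept genes of the proteasome activators and regulatory particle, 0 passed and 13 had a lower mean. The arrays stood apart in 5 that were lower and in 1 that was higher (Psme4), beside the same 17.5% and 19.9%. The median was -0.05, or -0.09 without wild-type replicate 2. Psmc4, an ATPase of the base, gave 243 and 411 in knockout against 433 and 547 in wild type, and Psmd6, a lid subunit, gave 4222 and 5264 against 5473 and 6084.

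Of interferon signalling genes, which act before the members, 3 of 14 kept genes were highest on wild-type replicate 2. Of the 14, 0 passed, 5 had a lower and 9 a higher mean in knockout, and the median was 0.09, or -0.00044 without wild-type replicate 2. Irf1, a factor that switches on class I genes, gave 2184 and 1095 in knockout ventricles against 1801 and 1983 in wild-type ventricles, with overlap. Irf8, an interferon-regulated factor of myeloid cells, gave 463 and 705 in knockout against 200.1 and 405 in wild type, and Ifngr1, the ligand-binding chain of the interferon-γ receptor, gave 1401 and 1234 against 798 and 1171. The probe set of interferon-γ itself (Ifng) gave 38.2 and 14.1 in knockout against 63.2 and 12.2 in wild type, below the floor on all 4 arrays.

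The interferon-response list had 13 kept genes, of which 0 passed and 3 were lower and 1 higher without overlap, beside 17.5% and 19.9% of all genes. Its median difference was -0.53 with 4 arrays and -0.0012 without wild-type replicate 2. Its medians on the single arrays were -0.22 and -0.32 in knockout against -0.22 and 0.52 in wild type, and the members' medians had the same high array. Isg15, a ubiquitin-like protein, gave 680.5 and 537 in knockout against 1363.5 and 814.5 in wild type, and Mx2, an antiviral GTPase, gave 566 and 554 against 438 and 405.

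Markers of cells that could carry class I were read as whole lists. T and NK cell markers had 14 genes on the array, of which 3 passed the filter and 5 were below the floor on every array, namely Cd2, Cd3d, Cd3g, Cd8a and Cd8b1. Their summed signals were 2690 and 2858 in knockout against 3365 and 2529 in wild type, so wild-type replicate 2 had the lowest sum. Of the kept genes, Cd28 was higher in knockout without overlap and Cd4 overlapped. B cell markers summed to 5454 and 6251 in knockout against 6666 and 4960 in wild type, with Cd79a at its highest on wild-type replicate 2 (1279) and Cd79b at its lowest there (342). Myeloid markers, with 12 of 19 genes kept, summed to 36740 and 33922 in knockout against 36326 and 30968 in wild type, and their median difference was 0.17. Cd52 was higher in knockout without overlap and Tyrobp overlapped. The part of these cells in the members' signals was not tested.

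Of the markers of other tissue parts none passed. Atrial markers were higher without overlap for 6 of 7 kept genes, beside 19.9% of all genes, with Stard10 at 4102 and 4237 in knockout against 2340.1 and 1717.5 in wild type, and Clu was lower. Fibroblast markers were higher without overlap for 6 of 8, beside the same 19.9%, with Lum at 5104 and 6196 in knockout against 2791 and 3809 in wild type and a median of 0.32. Ventricular cardiomyocyte markers had a median of -0.13 over 12 genes. Of these 5, with Mybpc3 and Mb among them, were lower and 0 higher without overlap, beside 17.5% and 19.9% of all genes. Of 11 endothelial markers 3, with Tie1 and Cdh5 among them, were lower and 0 higher without overlap, beside the same shares. The part of the tissue makeup in the differences of Psme1, B2m and Tapbp was not tested.

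**Figure D5:**
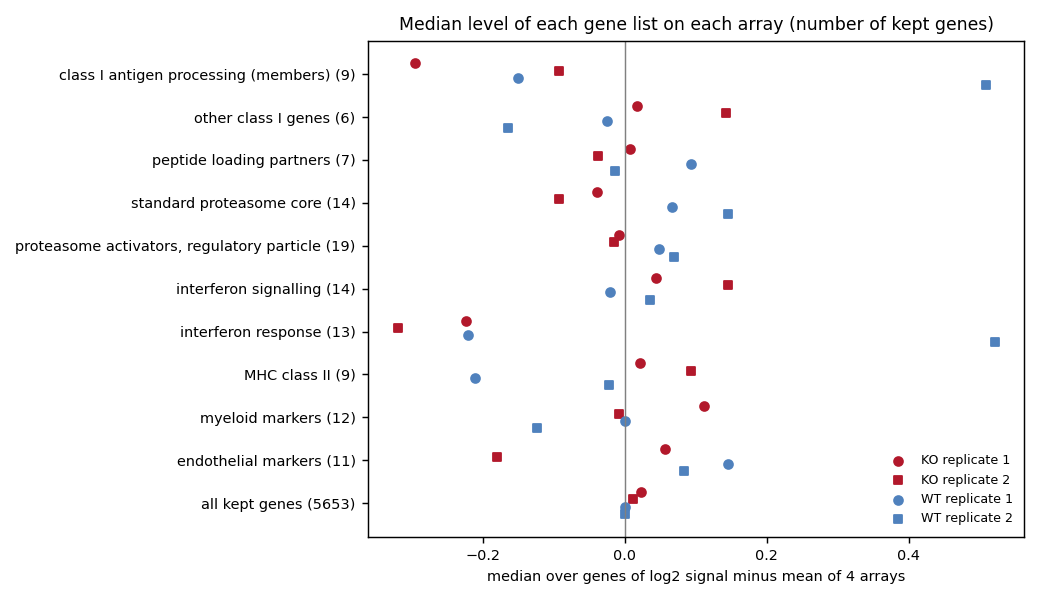
Median over genes of the log2 signal minus the mean of the 4 arrays (horizontal axis) for the member genes and 10 other sets (number of kept genes in brackets), with red for knockout and blue for wild type, circles for replicate 1 and squares for replicate 2. Wild-type replicate 2 lies at 0.51 for the members and 0.52 for the interferon response, and near the other arrays for class II, myeloid and endothelial genes.

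Genes with a like pattern over the 4 arrays were named by the smallest root mean square difference of log2 signals, each relative to its own mean, which is a description over 4 arrays. The member probe set with the widest range was the weaker one of Tap1, and Syt2, Krtap6-2, Pklr, Mrps16 and Six4 were nearest to it, at distances of 0.089 to 0.17. Each had its lowest signal on wild-type replicate 2, between 75.4 and 247. The same measure was also taken from the strongest probe sets of Tap1, Psmb8, Psmb9 and Psme1, a choice made after their values were seen. Nearest to that of Tap1 were Evl, Fbxo9, Gas8, Irf9 and Rab24, at distances of 0.039 to 0.065. For Psmb8 they were Ceacam1, Zfp617, Decr1, Dsc2 and Pnp, and for Psmb9 Smim26, Adk, Pnp, Fam136a and Dsc2. For Psme1 they were Wrnip1, Hsdl2, Snx2, Vamp5 and H3c14. Irf9 was among the nearest genes for Tap1 alone. Irf9, the DNA-binding subunit of the interferon-stimulated factor ISGF3, gave 1105 and 1042 in knockout ventricles against 1095 and 2277 in wild-type ventricles.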

How the data were processed

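Ventricular RNA was measured on 4 one-colour arrays, 2 per genotype. The deposited table holds the authors' intensity of each probe set on a linear, scaled range: the mean without the top and bottom 2% was 1501 on every array. Software, summary method and build are not given in the sources used here. The number of arrays limits the precision.

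Gene names came from the platform annotation, and 10839 of 10855 probe sets with 1 symbol matched RefSeq (GRCm38.p6) by gene ID; 396 had several symbols and 1237 had none. Controls (66) and probe sets whose mean lay under the 40th percentile were dropped, and signals were floored at the 20th percentile (110) before log2. limma 3.58.1 (R 4.3.3, lmFit and eBayes) fitted the genotype difference over 7453 probe sets, with Benjamini-Hochberg adjustment. With 2 arrays a side the smallest exact two-sided permutation p is 0.333, so none is given. The motif of NF-κB was searched as a pattern with 3 free positions. The fit was tested on simulated data.

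Lists used the strongest probe set per gene. From a list, any gene that passed was to be named, and otherwise the 2 genes of smallest unadjusted p. The counterparts of the immunoproteasome subunits and some interferon genes were given whatever their values. The alternatives changed the filter, the floor, the scaling, the variance prior, the probe sets included and the arrays included. Members and lists were chosen with earlier results of these data known. The labels do not say whether equal sample numbers pair the arrays. The correlation of replicate 1 minus 2 between genotypes, over the kept probe sets, was 0.0113, which cannot settle it.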

Additional observations from a re-analysis of the deposited data

How the results depend on the processing

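Under the alternatives tried none of the 16 member probe sets passed the threshold, with adjusted p from 0.470 upward; 187 of 196 values kept their direction. The 9 that turned came from leaving out an array. Without each array in turn the log2 differences ran from -0.21 to 0.090 and from -0.22 to 0.17 for the 2 weaker H2-D1 probe sets, from -0.30 to 0.17 for the middle H2-K1 probe set, from -0.79 to 0.41 for Tap2, from -0.0019 to 0.41 and from -0.016 to 0.46 for the weaker Tapbp probe sets, and from -0.83 to 0.032 for Psmb8. The median over the member genes ran from -0.69 to -0.11, the member probe sets without overlap from 10 to 14, and those at 1.5-fold without overlap from 0 to 6. Fewer arrays make overlap less likely by construction. The share of all probe sets without overlap is not given for these settings. The counts of 10 to 14 out of 16 thus cannot be set against the 37.4% found with all arrays. Without probe sets that carry a cross-hybridization suffix, 5 member probe sets of 9 had no overlap, beside 37.4% of all probe sets with the suffixed ones kept in. The count of all probe sets past the threshold was 1, and it was 0 with no filter, with a floor at the 5th or the 40th percentile, without suffixed probe sets, with the replicate block and without any 1 array, and 2 with the stricter filter and with the trend and robust prior; the cause was not tested. Whether equal sample numbers pair the arrays is not known. With the replicate block 0 member probe sets passed and the median over the member genes was -0.32. Scaling to a common median moved the median of all probe sets to -0.10, against 0.03 as deposited, and that of the member genes to -0.44. Adding the older-name class I genes, an alternative chosen after seeing the data, left the median at -0.32. Among the 16 member and the kept older-name probe sets, 11 had no overlap, beside 37.4% of all probe sets.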

Other observations

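MHC class II presentation, which shows peptides taken up from outside the cell, was measured on the same arrays. Of 9 kept genes 0 passed, and 8 had a higher mean in knockout and H2-DMa a lower one. The log2 difference of H2-DMa was -0.10, but 0.83 without wild-type replicate 2. Without overlap 2 were higher and 0 lower, beside 19.9% and 17.5% of all genes. The median difference was 0.13 on the log2 scale, or 0.33 without wild-type replicate 2. Ifi30, a lysosomal thiol reductase, gave 539 and 1064 in knockout against 461 and 475 in wild type, and Cd74, the invariant chain, gave 8775 and 9561 against 8555.5 and 8178. H2-DMb1, which pairs with H2-DMa, gave 853 and 1220 in knockout against 814 and 927 in wild type.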
